A study of Rattus norvegicus with 294 samples.

Results

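The 6 genes Hipk1, Gng10, Eef1a1, Srsf2, Son and Arsb were followed in laser-captured bone cells of rat vertebrae. They were chosen by their array signals of day 183, which were higher with a sclerostin antibody than with vehicle, out of 14217 genes that had a probe set of their own. Every antibody against vehicle value of these genes on that day is therefore given as a description, without a test, and supports nothing by itself. For markers and related genes it is stated which passed the threshold on day 183, and this too is only a description. All probe sets that the platform annotation lists with 1 of these genes alone were taken, which gave 13 of the 20826 probe sets with a single gene and of 31042 probe sets in all. Hipk1 and Gng10 had 1 probe set each, Eef1a1, Srsf2 and Arsb had 2 each, and Son had 5. The brightest probe set of a gene, by its mean over all arrays, was 1377609_at for Hipk1, 1388455_at for Gng10, 1388110_at for Eef1a1, 1371838_at for Srsf2, 1392523_at for Son and 1375412_at for Arsb. Unless another probe set is named, a gene's value below is that of its brightest probe set.

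The rats were female Sprague Dawley animals, ovariectomized at 6 months of age and left without treatment for 8 weeks, and this holds for all groups. Groups received the antibody at 3 mg/kg or 50 mg/kg, or vehicle, by subcutaneous injection once a week until day 183. Antibody and vehicle rats were sampled on days 8, 29, 85 and 183 of dosing. After dosing, the 3 mg/kg group and vehicle were sampled on days 197 and 267, and the 50 mg/kg group and vehicle on days 237 and 309. Osteoblasts, lining cells and osteocytes were cut from sections of lumbar vertebrae, and the RNA was amplified before it was put on Affymetrix rat arrays. There were 174 antibody and 120 vehicle arrays, 97 of osteoblasts, 100 of lining cells and 97 of osteocytes, in 60 groups of 3 to 5 arrays. The design text says that cells were captured from the first 5 animals of a group and day, but the labels tie no array to an animal, so arrays of different cell types may share a rat.

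Sclerostin is a protein that osteocytes secrete and that holds back Wnt signalling in bone by binding the Lrp5 and Lrp6 co-receptors; antibodies against it raise bone formation. The 6 genes do not form a pathway. Hipk1 encodes a nuclear kinase that binds homeodomain proteins and phosphorylates transcription regulators, and Gng10 encodes a gamma subunit of the heterotrimeric G proteins that relay signals from membrane receptors. Eef1a1 encodes the elongation factor that brings aminoacyl-tRNA to the ribosome. Srsf2 encodes a serine and arginine rich splicing factor, and Son encodes a large protein of nuclear speckles that is needed for splicing of weak introns. Arsb encodes the lysosomal sulfatase that takes sulfate groups from dermatan and chondroitin sulfate.

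The promoters of Hipk1, Gng10 and Eef1a1 are shown because these were the members with the largest day 183 differences in osteoblasts. Each run holds 250 bases before and 50 bases after the annotated start, from RefSeq on build GRCr8. The Hipk1 window is chr2:193987295-193987594 on the minus strand, the Gng10 window chr5:78650917-78651216 on the plus strand and the Eef1a1 window chr8:88225020-88225319 on the minus strand. Capitals mark the GC box GGGCGG or its reverse CCGCCC.
Hipk1: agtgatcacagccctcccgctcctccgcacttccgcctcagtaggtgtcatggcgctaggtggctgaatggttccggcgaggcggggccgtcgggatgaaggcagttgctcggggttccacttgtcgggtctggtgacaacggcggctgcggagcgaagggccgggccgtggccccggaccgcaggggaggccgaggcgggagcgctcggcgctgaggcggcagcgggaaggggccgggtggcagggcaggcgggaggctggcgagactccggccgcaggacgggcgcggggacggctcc
Gng10: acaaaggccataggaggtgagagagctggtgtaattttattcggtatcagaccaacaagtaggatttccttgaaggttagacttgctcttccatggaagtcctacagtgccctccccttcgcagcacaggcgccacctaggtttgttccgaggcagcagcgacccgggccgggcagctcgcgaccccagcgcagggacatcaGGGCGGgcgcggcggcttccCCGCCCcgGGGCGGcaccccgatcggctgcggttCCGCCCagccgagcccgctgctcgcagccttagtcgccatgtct
Eef1a1: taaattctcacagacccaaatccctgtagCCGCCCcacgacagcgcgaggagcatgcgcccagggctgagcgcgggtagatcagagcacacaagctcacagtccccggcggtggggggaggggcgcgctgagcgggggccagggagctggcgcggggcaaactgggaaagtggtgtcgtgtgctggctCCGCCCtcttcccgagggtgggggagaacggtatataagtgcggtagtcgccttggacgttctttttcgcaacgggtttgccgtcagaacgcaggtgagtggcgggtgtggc
Gng10 held 4 GC boxes, Eef1a1 2 and Hipk1 none, and 33.1% of all 33469 promoter windows of this length held at least 1. The Hipk1 window was 73.7% G and C, above that of 95.7% of all windows, against 63.7% for Gng10 and 64.7% for Eef1a1. Of the members, 5 of 6 had a window in the table, and Arsb had none. The Srsf2 window held 5 GC boxes, some of them overlapping, with 1 CCAAT and 1 TATAAA, and the Son window held 1 GC box and 3 CCAAT. On either strand, CCAAT was in 37.5% of all windows, TATAAA in 14.2%, TGACGTCA in 1.83% and CTTTGA in 16.1%, and the last 2 of these were in none of the 5 members' windows. A match of letters is a description and not a binding site.

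Signals are the deposited linear values, and changes are differences of log2 values from the limma fit of all arrays of a cell type, antibody minus vehicle. A probe set was tested if it exceeded the median of its array on at least 5 arrays, which left 20625 probe sets in osteoblasts, 21201 in lining cells and 21854 in osteocytes. Of the 13 member probe sets, 12 were tested in each cell type, and Son 1394268_at was not. A change passed the test if its Benjamini-Hochberg adjusted p over all tested probe sets was under 0.05. Of 6 osteocyte markers, among them Mepe and Dmp1, 5 were tested in osteocyte arrays and 3 each in osteoblast and lining cell arrays, with summed signals of 933.4 to 18930, 75.9 to 1281 and 44.05 to 1034. The 6 tested osteoblast markers, among them Col1a1 and Bglap, summed to 683.8 to 35570 in osteoblast, 478.9 to 13220 in lining cell and 2583 to 31470 in osteocyte arrays. Erythroid markers summed to at least 9020, 6352 and 3039 and granulocyte markers to at least 6590, 5928 and 1427 on every osteoblast, lining cell and osteocyte array. In such bulk captures, fewer cells of a type and less RNA per cell cannot be told apart. Signal range, the log2 distance between the 90th and 50th percentile of all probe sets of an array, stood apart on 3 arrays, 1 each of 50 mg/kg lining cells of day 8, vehicle osteoblasts of day 85 and 3 mg/kg osteocytes of day 29.

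In osteoblasts on day 183, the antibody arrays had higher Hipk1, Gng10 and Eef1a1 signals than all vehicle arrays. Hipk1 had signals of 150.2 at the lowest, 206.4 at the median and 251.5 at the highest on the 10 antibody arrays, against 68.06, 134.3, 63.31, 73.65 and 50.96 on the 5 vehicle arrays. The groups did not overlap, although the highest vehicle array came close to the lowest antibody array. The log2 change over both doses was 1.43 with an SE of 0.17, the second of all 20625 tested probe sets from the top. Gng10 had signals of 149.4, 305.9 and 357.2 at the lowest, median and highest on antibody arrays, against 67.57, 81.95, 119.6, 90.43 and 79.54 on vehicle arrays. Its groups did not overlap either, and its log2 change of 1.70 with an SE of 0.20 was rank 1 of all. Eef1a1 had signals of 5644, 8336 and 8953 at the lowest, median and highest on antibody arrays, against 1914, 2264, 3149, 5629 and 4499 on vehicle arrays, a log2 change of 1.27 with an SE of 0.17. The lowest antibody array and the highest vehicle array were almost level. Since the members were chosen for these values, the counts are read against nothing: 3.07% of all tested probe sets passed the test in osteoblasts on day 183, 0.113% in lining cells and 1.44% in osteocytes.

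Both splicing genes and Arsb differed less in osteoblasts. Srsf2 had signals of 466.3, 631.6 and 789.6 at the lowest, median and highest on antibody arrays, against 363.5, 272.8, 381.9, 543.4 and 528.6 on vehicle arrays, and 8 of 10 antibody arrays lay above all vehicle arrays. Its log2 change was 0.60 with an SE of 0.12. Son had signals of 1479, 1576 and 1888 on antibody arrays, against 1466, 1371, 1369, 1698 and 1389 on vehicle arrays, a log2 change of 0.15. These groups overlapped. Arsb had 43.82, 72.72 and 110.3 on antibody arrays, against 91.07, 41.02, 36.65, 56.5 and 61.02 on vehicle arrays, also with overlap, and a log2 change of 0.42. By dose, the log2 changes in osteoblasts at 3 and at 50 mg/kg were 1.29 and 1.58 for Hipk1, 1.54 and 1.85 for Gng10, 1.25 and 1.28 for Eef1a1 and 0.55 and 0.66 for Srsf2.

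**Figure D1:**
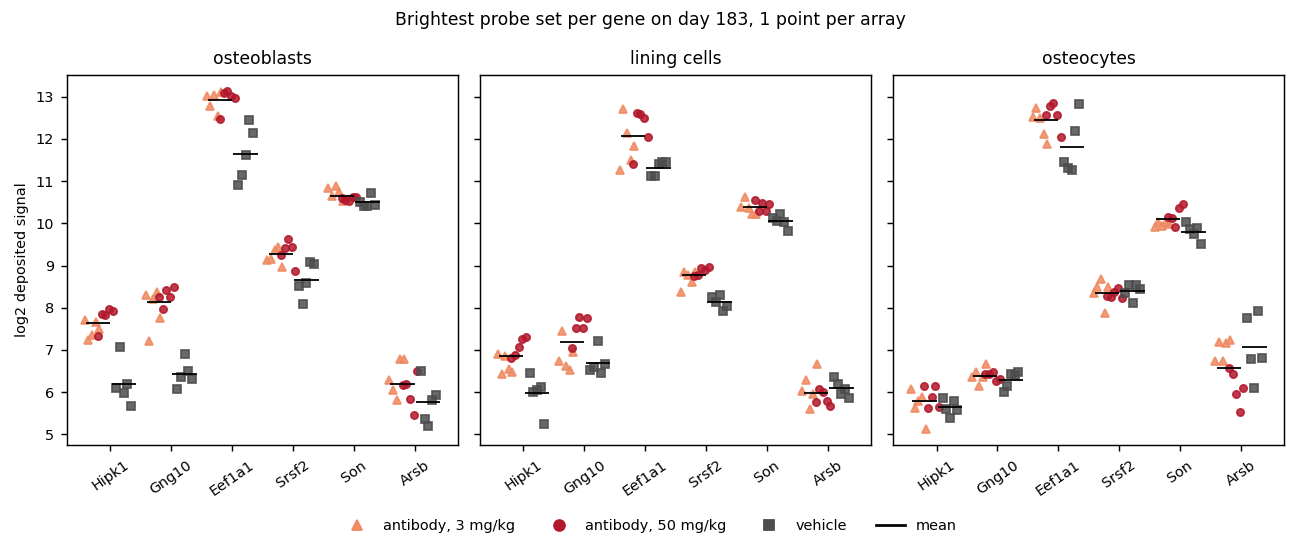
Signals of the brightest probe set of each member on day 183, as log2 of the deposited signal, with 1 point per array, antibody arrays of both doses left of vehicle arrays in each cell type, and bars for the group means. In osteoblasts all 10 antibody arrays lie above all 5 vehicle arrays for Hipk1, Gng10 and Eef1a1.

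In lining cells 5 of the 6 genes had differences of the same direction, smaller than in osteoblasts for Hipk1, Gng10 and Eef1a1 and not for Srsf2 and Son. Hipk1 had signals of 86.18, 117.4 and 157.7 at the lowest, median and highest on antibody arrays, against 87.36, 64.16, 66.05, 69.96 and 38.12 on vehicle arrays, a log2 change of 0.88 with an SE of 0.18. Srsf2 had 332.2, 450.4 and 499.8 on antibody arrays, against 303.2, 281.3, 315.8, 241.4 and 261.4 on vehicle arrays, a log2 change of 0.66 with an SE of 0.11. Antibody and vehicle arrays did not overlap for Srsf2 and overlapped by 1 antibody array for Hipk1. Eef1a1 had 2480, 4362 and 6670 on antibody arrays, against 2230, 2235, 2711, 2793 and 2811 on vehicle arrays, a log2 change of 0.75 with an SE of 0.19. Son had 1193, 1335 and 1569 on antibody arrays, all above the vehicle arrays at 1117, 1068, 1185, 1051 and 908.3, with a log2 change of 0.34. Gng10, the top probe set of osteoblasts, had 92.71, 153.8 and 220.7 on antibody arrays, against 91.65, 96.9, 148.5, 88.26 and 101.3 on vehicle arrays, and only 5 of 10 antibody arrays lay above all vehicle arrays. Its log2 changes were 0.17 at 3 mg/kg and 0.83 at 50 mg/kg. The log2 change of Arsb in lining cells was -0.11.

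In osteocytes on day 183, Hipk1 and Gng10 differed little. Hipk1 had signals of 35.22, 57.16 and 71.2 at the lowest, median and highest on antibody arrays, against 57.8, 48.56, 41.96, 55.07 and 47.98 on vehicle arrays, a log2 change of 0.15 with an SE of 0.21. Gng10 had 70.44, 84.34 and 102 on antibody arrays, against 63.68, 70.51, 86.01, 84.19 and 89.08 on vehicle arrays, a log2 change of 0.11 with an SE of 0.16. In both genes the groups overlapped over most of their range. Eef1a1 had the largest difference of the 6 genes there, with 3773, 5970 and 7375 on antibody arrays against 2790, 2559, 2480, 4694 and 7232 on vehicle arrays and a log2 change of 0.64 with an SE of 0.20. Son had a log2 change of 0.29, above its 0.15 in osteoblasts, and the difference was not tested. Arsb had a log2 change of -0.50 and Srsf2 one of -0.04.

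The vehicle values of day 183 had a part in the choice of the genes, which favours genes that were low in that group, so their place among the vehicle days is given as a description. Among the 8 vehicle days, day 183 had the lowest mean of Hipk1, Eef1a1 and Srsf2 in each of the 3 cell types, and of Gng10 in osteoblasts and lining cells. In osteoblasts on day 183, Hipk1 averaged 7.64 ± 0.27 on antibody arrays (SD, n = 10) and 6.20 ± 0.52 on vehicle arrays (SD, n = 5), on the log2 scale. The vehicle means of the other 7 days ran between 7.39 and 8.77, and 6 of these 7 lay above the antibody mean of day 183. Gng10 averaged 8.13 ± 0.38 on day 183 antibody arrays (SD, n = 10) and 6.43 ± 0.30 on day 183 vehicle arrays (SD, n = 5), with the other vehicle days between 8.09 and 9.31 and 6 of 7 of them above the antibody mean. For Srsf2 all 7 other vehicle days, between 9.65 and 10.36, lay above the antibody mean of 9.27. Eef1a1 differed in this: its antibody mean was 12.92, and 2 of the 7 other vehicle days lay above it. In lining cells, 6 of 7 other vehicle days for Hipk1, 7 of 7 for Gng10 and Srsf2 and 5 of 7 for Eef1a1 lay above the day 183 antibody mean.

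**Figure D2:**
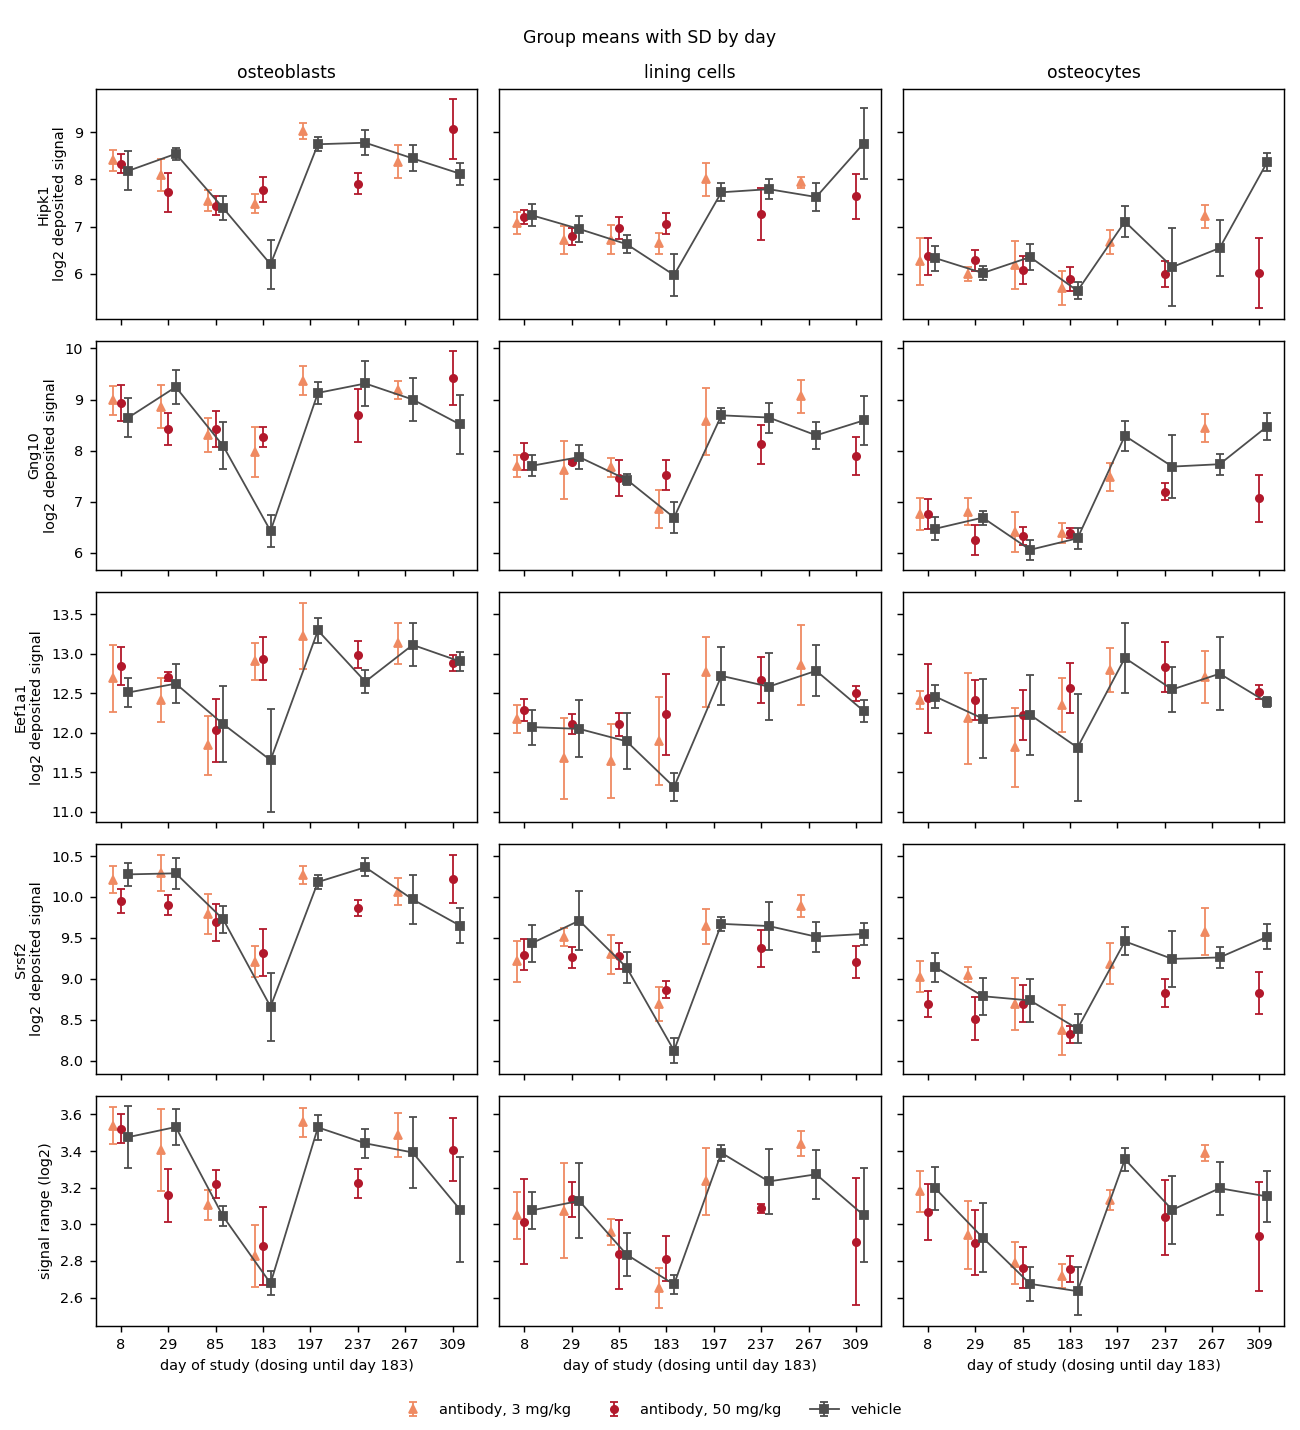
Group means of 4 members and of array signal range by day of the study, with bars for the SD, in 3 panels per row for the 3 cell types, and with the 2 doses and vehicle as separate symbols. The vehicle mean of day 183 is the lowest of the 8 vehicle days for Hipk1, Eef1a1, Srsf2 and the signal range in every cell type.

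Array signal range was also lowest on day 183. Its vehicle mean was 2.68 in osteoblasts, 2.67 in lining cells and 2.63 in osteocytes on that day, and it reached 3.53, 3.39 and 3.36 on other vehicle days. On day 183 in osteoblasts it averaged 2.83 at 3 mg/kg and 2.88 at 50 mg/kg, against 2.68 in vehicle. Over the 8 vehicle days of osteoblasts, the mean of a member followed the mean signal range with r = 0.93 for Hipk1, 0.93 for Gng10, 0.96 for Srsf2 and 0.74 for Eef1a1, and with r = 0.09 for Son. Without day 183, over 7 days, these were 0.82, 0.84, 0.92, 0.42 and 0.02. In lining cells and osteocytes Hipk1 had r = 0.66 and 0.54 over 8 days, and 0.37 and 0.38 without day 183. Gng10, Eef1a1 and Srsf2 lay between 0.77 and 0.94 there over 8 days. Other probe sets of the same genes could differ: in osteoblasts r was 0.009 for Srsf2 1371839_at and 0.95 for Son 1398989_at. Level and range come from the same arrays, so these values describe the arrays and carry no test.

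Signal range was then set against the members within groups of the same cell type, treatment and day. The slope, in log2 signal per log2 unit of range with the group means fitted, was positive and passed the test for 8 of 12 member probe sets in osteoblasts and for 10 of 12 each in lining cells and osteocytes, and was negative past the threshold for none. This is to be read against a background in which 58.3%, 64.8% and 56.7% of all probe sets tested in these cell types had a slope that passed in either direction. The share of positive slopes alone is not given, so these counts do not tell the members apart from other probe sets. Under quantile normalization 4, 7 and 5 member slopes passed in osteoblasts, lining cells and osteocytes, and over vehicle arrays only 6, 5 and 4 did. For these 2 settings no share over all probe sets is given, and the counts only describe the members. The median slope of the members was 0.849 in osteoblasts, 0.9 in lining cells and 0.948 in osteocytes, against 0.195, 0.139 and 0.126 over all probe sets. The range is itself set by the bright probe sets of an array, the brightest probe sets of the 6 genes were brighter than 93.5% to 99.95% of all, and no match on brightness was made, so the medians are a description. In osteoblasts Gng10 had a slope of 1.29 (SE 0.26, limma adjusted p = 2.08e-05), Srsf2 one of 0.84 (SE 0.15, limma adjusted p = 1.35e-06) and Hipk1 one of 0.79 (SE 0.23, limma adjusted p = 0.00229). Eef1a1 did not pass there, at 0.38 (SE 0.24, limma adjusted p = 0.163), but did in lining cells at 0.88 and in osteocytes at 1.07. Son was nearly flat in all 3 cell types, at -0.04, 0.11 and -0.07, whereas its second probe set 1398989_at had one of the steepest slopes of osteoblasts at 2.16, with 99.6% of all slopes below it. Both Arsb probe sets were steep, between 1.17 and 2.09.

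**Figure D3:**
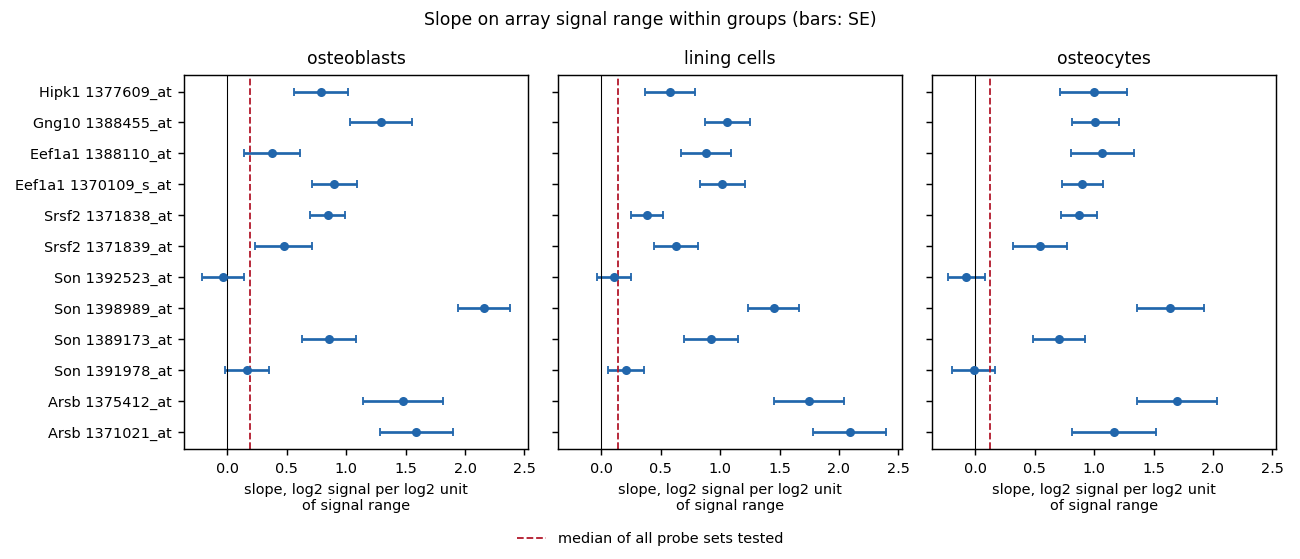
Slope of each tested member probe set on array signal range within groups, with bars for the SE and a dashed line at the median slope of all tested probe sets of the cell type. Son 1392523_at and Son 1391978_at lie near 0 in every cell type, and Son 1398989_at and the Arsb probe sets have the steepest slopes.

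With signal range as a covariate, the day 183 changes in osteoblasts were 1.29 for Hipk1, 1.47 for Gng10, 1.20 for Eef1a1 and 0.45 for Srsf2. In lining cells they were 0.84 for Hipk1, 0.44 for Gng10, 0.70 for Eef1a1 and 0.63 for Srsf2. Each was smaller than without the covariate, by the most for Gng10 in osteoblasts, at 1.70 without it. Marker genes also differed on that day in osteoblasts: 3 of 4 tested granulocyte markers rose (1 of 4 under quantile normalization), with summed signals of 10480 to 11950 at 3 mg/kg and 12790 to 15120 at 50 mg/kg against 6590 to 10080 in vehicle, as did Mmp9 of 3 osteoclast markers and Pf4 of 6 megakaryocyte markers. In osteocytes 3 of 5 osteocyte markers rose, among them Mepe with a log2 change of 2.24. The part of these other cells' RNA in the member values was not tested.

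On days 8, 29 and 85, which had no part in the choice of the genes, no member probe set rose. In osteoblasts 7 combinations of probe set and day fell, 2 on day 8 and 5 on day 29. In lining cells 1 fell, on day 8, and in osteocytes none passed on these days. Of all tested probe sets, 3.39% passed on day 8, 12.8% on day 29 and 1.66% on day 85 in osteoblasts, 0.349%, 0.0236% and 0.0896% in lining cells, and 0.192%, 0.233% and 4.96% in osteocytes. At an unadjusted p under 0.05 there were 3, 1 and 1 member probe sets on days 8, 29 and 85 in osteocytes, 3 and 2 on days 29 and 85 in lining cells and 0 on day 85 in osteoblasts.

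Hipk1 fell in osteoblasts on day 29, the reverse of its day 183 direction. It had signals of 151.4 at the lowest, 239.2 at the median and 339 at the highest on 10 antibody arrays, against 423.5, 379.7, 335, 381.2 and 346.9 on vehicle arrays. Of the antibody arrays, 8 of 10 lay below all vehicle arrays. The log2 change was -0.63 (SE 0.17, limma adjusted p = 0.00917), and all 10 arrays lay below the vehicle mean. Gng10 fell on the same day, with 248.2, 380.9 and 636.9 on antibody arrays, against 830.8, 546.4, 607.7, 668.1 and 446.2 on vehicle arrays. Its log2 change was -0.60 (SE 0.20, limma adjusted p = 0.0393), and it no longer passed when any of 9 single arrays was left out. Signal range was lower on the antibody arrays of that day by 0.248. With range as a covariate, none of the 5 falls of day 29 passed, with Hipk1 at -0.43 (limma adjusted p = 0.189) and Gng10 at -0.28 (limma adjusted p = 0.566), and quantile normalization also ended both calls, with Hipk1 at -0.46 (limma adjusted p = 0.0563).

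Son and Arsb fell in osteoblasts on day 8. Son had signals of 1946, 1341, 1828 and 1506 at 3 mg/kg and 1412, 1185, 1653, 1591 and 1248 at 50 mg/kg, against 2160, 1980, 2612, 1966 and 2381 in vehicle. All 9 antibody arrays lay below all vehicle arrays. The log2 change was -0.54 (SE 0.13, limma adjusted p = 0.00578), and with signal range as a covariate it was also -0.54 (limma adjusted p = 0.00444). Arsb had 251.3, 192, 110.6 and 85.85 at 3 mg/kg and 168, 78.29, 87.52, 79.25 and 128.6 at 50 mg/kg, against 250.9, 289.6, 253.3, 182.8 and 362.2 in vehicle, a log2 change of -1.09 (SE 0.26, limma adjusted p = 0.00844). Here 7 of 9 antibody arrays lay below all vehicle arrays. None of 3 tested osteoclast markers passed on day 8, and their sums were 5590 to 12510 at 3 mg/kg and 3317 to 6678 at 50 mg/kg, against 9175 to 12340 in vehicle, while 4 of 8 erythroid markers rose. Their part in the member values was not tested. A fit of the compared groups alone ended both calls. Among the 8 vehicle days of osteoblasts, day 8 had the highest means of both genes, at 11.11 for Son and 8.03 for Arsb on the log2 scale. In lining cells Son also fell on day 8, by 0.46 on the log2 scale (SE 0.12, limma adjusted p = 0.0479), a call that ended when any of 10 single arrays was left out, the 50 mg/kg array of outlying signal range among them, while the other member probe sets did not pass there.

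Arsb fell again on day 29, with 51.76, 85.04 and 176.9 at the lowest, median and highest on antibody arrays, against 159.7, 210.1, 199.7, 130.7 and 181.7 on vehicle arrays, and a log2 change of -0.94 (SE 0.26, limma adjusted p = 0.00984). It was lower at 50 mg/kg, at 51.76 to 94.12, than at 3 mg/kg, at 69.92 to 176.9, but this dose difference did not pass. On that day 2 of 3 tested osteoclast markers, Acp5 and Ctsk, fell by 0.74 and 0.71 on the log2 scale. Their list summed to 3998 to 6205 at 3 mg/kg and 2602 to 4064 at 50 mg/kg, against 4858 to 9109 in vehicle. Among the marker lists, 3 of 6 osteoblast markers and 4 of 6 megakaryocyte markers rose on the same day. No tested marker of these lists had a mean below the array medians in osteoblasts. Quantile normalization ended the calls of both osteoclast markers, and their part in the Arsb value was not tested.

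Doses differed for few members. On days 8, 29 and 85, 1 combination of probe set and day passed in osteoblasts and none in lining cells. In osteocytes 2 passed on day 29 and 2 on day 85. All were lower at 50 than at 3 mg/kg. The call in osteoblasts was Son 1389173_at on day 29, at -0.78 (limma adjusted p = 0.0145). It ended with signal range as a covariate, in a fit of the compared groups alone and when any of 3 single arrays was left out. Over the 4 dosing days together, 1.1%, 0.433% and 2.86% of all tests of the dose difference passed in osteoblasts, lining cells and osteocytes. These shares include day 183, which the member counts above leave out. At an unadjusted p under 0.05, lining cells had 1, 1 and 4 on days 8, 29 and 85. In osteocytes Arsb was lower at 50 mg/kg on day 85, with 71.33, 49.55 and 53.51, against 184.1, 143.9, 135.6, 186.6 and 146.6 at 3 mg/kg. The groups did not overlap, and the log2 difference was -1.46 (SE 0.36, limma adjusted p = 0.00643). Its other probe set 1371021_at had a difference of -1.49 (SE 0.35, limma adjusted p = 0.00393) on that day. On day 29 the difference of Arsb was -1.17 (limma adjusted p = 0.022). Day 183 is only described, since its arrays also chose the genes. The dose difference of 1371021_at in osteocytes was -1.08 on that day, which supports nothing. The day 85 group at 50 mg/kg had only 3 arrays, and array weights ended both calls of that day. The day 29 call ended when any of 3 single arrays was left out, among them the 3 mg/kg array of outlying signal range. Srsf2 was lower at 50 mg/kg on day 29 in osteocytes, by 0.54 on the log2 scale (limma adjusted p = 0.0234), and this also ended without that array.

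After dosing, calls were made in each cell type. In osteoblasts 4 member probe sets fell on day 237 and 5 rose on day 309, and none passed on days 197 and 267 (none also at an unadjusted p under 0.05). In lining cells 1 rose on day 267, Son 1398989_at, a call that ended when any of 8 single arrays was left out, and 1 fell on day 309, while none passed on days 197 and 237 (0 and 3 at an unadjusted p under 0.05). In osteocytes 2 fell on day 197, 1 rose on day 237, 2 rose on day 267, and 4 fell and 1 rose on day 309. The shares of all tested probe sets that passed on days 197, 237, 267 and 309 were 0.0582%, 9.04%, 0% and 8.66% in osteoblasts, 0.0283%, 1.26%, 0.783% and 0.373% in lining cells, and 0.933%, 10.3%, 3.17% and 12.8% in osteocytes.

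On day 309, after dosing with 50 mg/kg had ended, Hipk1 rose in osteoblasts and fell in both other cell types. In osteocytes its signals were 48.13, 52.21, 151.5, 72.15 and 41.66 on the arrays of rats given 50 mg/kg, against 290.6, 331.2, 379.2, 284 and 366.6 on vehicle arrays. All 5 antibody arrays lay far below all vehicle arrays. The log2 change was -2.34 (SE 0.25, limma adjusted p = 9.7e-11), a ratio of 0.198. The vehicle mean of Hipk1 on that day, 8.36 on the log2 scale, was the highest of the 8 vehicle days in osteocytes. The median of the 7 vehicle days other than day 183 was 6.36, so the contrast is with a high vehicle group. In lining cells the signals were 244, 226.3, 287.8, 151.8 and 130, against 172, 598.7, 571.3, 556.6 and 462.5 in vehicle, a log2 change of -1.12 (SE 0.21, limma adjusted p = 0.00191). A single low vehicle array made the groups overlap. Here too the vehicle mean of day 309, 8.76, was the highest of the 8 vehicle days, and the median of the 7 days other than day 183 was 7.63. In osteoblasts the signals were 757.4, 801.6, 641.7, 327.8 and 334.2, against 298.3, 347.5, 222.7, 269.1 and 266.3 in vehicle, a log2 change of 0.94 (SE 0.19, limma adjusted p = 0.00159). There, 3 antibody arrays lay clearly above vehicle and 2 lay inside its range.

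Gng10 and Srsf2 had the same opposite directions in osteoblasts and osteocytes. In lining cells their log2 changes of -0.69 and -0.35 did not pass. Gng10 had signals of 146.1, 123.1, 193.2, 151.9 and 82.16 in osteocytes after 50 mg/kg, against 321.2, 438, 314.8, 300.7 and 424.2 in vehicle, a log2 change of -1.41 (SE 0.18, limma adjusted p = 6.6e-08). In osteoblasts it had 1006, 935.7, 724.3, 499.9 and 446.1 after 50 mg/kg, against 531.7, 470.8, 226.5, 248.7 and 460.6 in vehicle, a log2 change of 0.91 (SE 0.24, limma adjusted p = 0.00966). The osteocyte groups did not overlap and the osteoblast groups did. Among the 8 vehicle days of osteocytes, day 309 had the highest means of Gng10, at 8.47, and of Srsf2, at 9.51, on the log2 scale. The medians of the 7 vehicle days other than day 183 were 7.69 and 9.24. Srsf2 had 437.2, 401.3, 583.1, 508.7 and 377.9 in osteocytes after 50 mg/kg, against 865.8, 681.4, 703, 669.1 and 753.6 in vehicle, without overlap and with a log2 change of -0.68 (SE 0.14, limma adjusted p = 0.000514). In osteoblasts Srsf2 had 1216, 1362, 1542, 987.4 and 957.8 after 50 mg/kg, against 849.1, 787.8, 643.6, 797.3 and 974.1 in vehicle, a log2 change of 0.57 (SE 0.14, limma adjusted p = 0.00621). Only 1 of these 5 antibody arrays lay inside the vehicle range. The other Srsf2 probe set, 1371839_at, differed from the brightest against these directions. Its change minus that of 1371838_at was 0.82 in osteocytes (limma adjusted p = 0.00748). That call ended under quantile normalization and without vehicle replicate 1. The difference was 0.67 in lining cells (limma adjusted p = 0.121) and -0.55 in osteoblasts (limma adjusted p = 0.16), which did not pass.

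**Figure D4:**
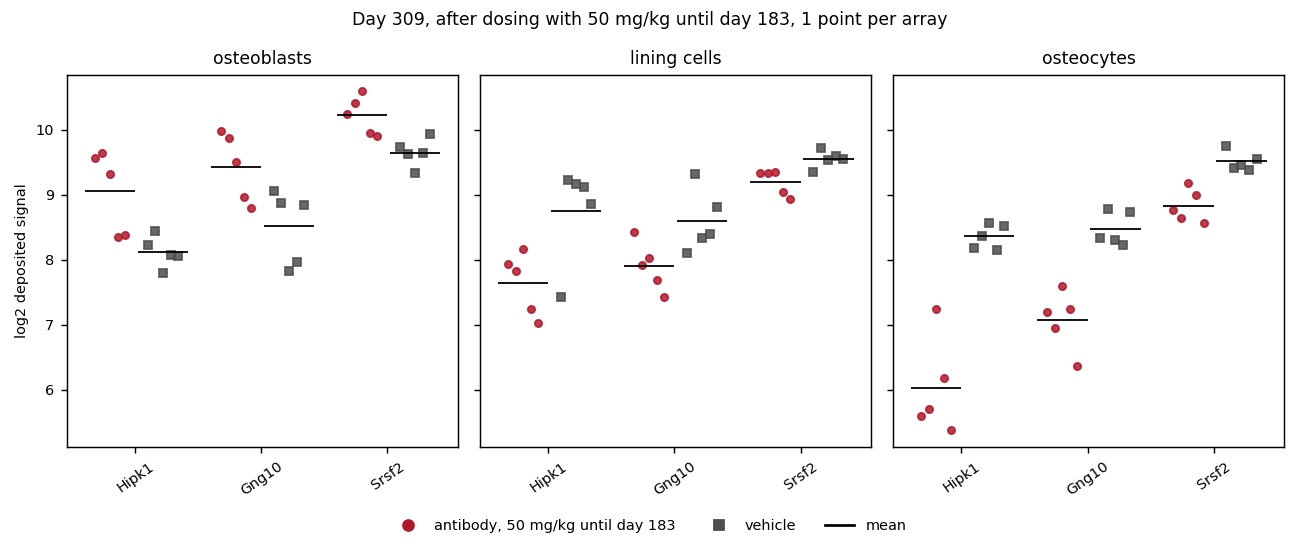
Signals of Hipk1, Gng10 and Srsf2 on day 309 as log2 of the deposited signal, 1 point per array, arrays of rats given 50 mg/kg until day 183 left of vehicle arrays, bars for means. The antibody means lie above vehicle in osteoblasts and below it in lining cells and osteocytes.

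The difference between cell types was tested in 1 fit of all arrays, added after the data were seen, which treats arrays of different cell types as independent. Over 7 contrasts that the choice did not use, 3 pairs of cell types and 6 genes, 6 of 126 differences passed, all on day 309, against 2.34% over all probe sets. Osteoblasts minus osteocytes gave 3.28 for Hipk1 (limma adjusted p = 2.37e-17), 2.32 for Gng10 (limma adjusted p = 4.17e-10) and 1.25 for Srsf2 (limma adjusted p = 8.33e-08) on the log2 scale. On that day and for that pair of cell types 24% of all probe sets passed. Osteoblasts minus lining cells gave 2.06 for Hipk1 (limma adjusted p = 4.14e-07), 1.60 for Gng10 (limma adjusted p = 6.57e-05) and 0.92 for Srsf2 (limma adjusted p = 0.000387), where 9.94% of all probe sets passed.

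Signal range went the same way as Hipk1, Gng10 and Srsf2 on day 309, and not as Arsb, which had log2 changes of 0.63 in lining cells and 0.80 in osteocytes. It was higher after 50 mg/kg than in vehicle by 0.327 in osteoblasts and lower by 0.144 in lining cells and 0.217 in osteocytes. With range as a covariate, the falls of osteocytes remained past the threshold, with Hipk1 at -2.12 (limma adjusted p = 8.42e-10), Gng10 at -1.19 (limma adjusted p = 5.01e-07) and Srsf2 at -0.49 (limma adjusted p = 0.00593), as did Hipk1 in lining cells at -1.04 (limma adjusted p = 0.00267). The rises of osteoblasts did not: Hipk1 was at 0.68 (limma adjusted p = 0.169), Gng10 at 0.49 (limma adjusted p = 0.482) and Srsf2 at 0.30 (limma adjusted p = 0.448). A fit of the compared groups alone also ended these rises and the fall of Hipk1 in lining cells. Quantile normalization ended the osteoblast rises of Gng10, at 0.60 (limma adjusted p = 0.0826), and Srsf2, at 0.30 (limma adjusted p = 0.172). It did not end that of Hipk1, at 0.62 (limma adjusted p = 0.0356). The rise of Gng10 in osteoblasts ended without vehicle replicate 3 or 4, and that of Srsf2 without vehicle replicate 3 or 50 mg/kg replicate 3. In osteocytes of that day, 4 of 8 erythroid and 3 of 4 granulocyte markers fell, with granulocyte sums of 4162 to 6614 after 50 mg/kg against 6563 to 9388 in vehicle. In the same arrays 5 of 6 osteoblast, 3 of 5 osteocyte and 4 of 5 skeletal muscle markers rose, with osteocyte sums of 2791 to 9404 against 933.4 to 4549 and muscle sums of 33.08 to 228.2 against 28.88 to 33. The part of these cells in the member values was not tested.

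Arsb rose in osteoblasts on day 309 too, with 151.6, 81.91, 131.4, 150.9 and 79.44 after 50 mg/kg, against 55.44, 40.84, 41.94, 33.29 and 67.48 in vehicle. The groups did not overlap, and the log2 change was 1.30 (SE 0.30, limma adjusted p = 0.0036). The vehicle mean of Arsb on that day, 5.53 on the log2 scale, was the lowest of the 8 vehicle days in osteoblasts. The osteoclast markers Acp5 and Ctsk rose in the same arrays by 1.23 and 1.03, and Mmp9 of that list did not pass. Their list summed to 5393 to 7373 after 50 mg/kg against 2256 to 5086 in vehicle. Ibsp of the osteoblast markers and Emcn of the endothelial markers also rose in these arrays, by 0.94 and 1.04. The part of these cells in the Arsb value was not tested. With signal range as a covariate Arsb was at 0.82 (limma adjusted p = 0.314), and a fit of the compared groups alone also ended the call. In osteocytes of that day only the dimmer Arsb probe set 1371021_at passed, at 0.86 (limma adjusted p = 0.045), and the call ended when any of 6 single arrays was left out.

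On day 237 Hipk1 fell in osteoblasts, with 199.5, 225.9, 264.3 and 280.6 after 50 mg/kg, against 591.5, 438.8, 375.1, 429.4 and 384 in vehicle. The groups did not overlap. The log2 change was -0.86 (SE 0.21, limma adjusted p = 0.00464), and it passed in every alternative tried and with any single array left out. Srsf2 had 887, 878.5, 1000 and 985.5 after 50 mg/kg, against 1203, 1333, 1295, 1292 and 1477 in vehicle, also without overlap, and a log2 change of -0.49 (SE 0.15, limma adjusted p = 0.0242). Among the 8 vehicle days of osteoblasts, day 237 had the highest means of both genes, at 8.77 for Hipk1 and 10.36 for Srsf2 on the log2 scale. The medians of the 7 vehicle days other than day 183 were 8.44 and 10.18. Signal range was lower after 50 mg/kg by 0.219 on this day, and with it as a covariate Hipk1 was at -0.69 (limma adjusted p = 0.0385) and Srsf2 at -0.31 (limma adjusted p = 0.186). The call of Srsf2 also ended under quantile normalization and without vehicle replicate 5 or 50 mg/kg replicate 1 or 2. Of the markers in these arrays, Alpl rose and Bglap fell among 6 of osteoblasts, with sums of 2221 to 9262 after 50 mg/kg against 6188 to 9484 in vehicle. Selp and Ppbp rose among 6 megakaryocyte markers, with sums of 5976 to 12360 against 5454 to 8448, and Ms4a1 fell among 3 of the B lineage, with sums of 124.6 to 178.2 against 203.9 to 304.4. Kdr fell among 5 endothelial markers, with sums of 283.5 to 510.1 against 316.3 to 422.9, and the part of these cells in the member values was not tested.

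After 3 mg/kg, Gng10 in osteocytes fell on day 197 and rose on day 267. On day 197 it had 137.2, 224.9, 176.5, 206.6 and 163.3, against 233.1, 391.4, 324.7, 360.6 and 281.8 in vehicle, a log2 change of -0.81 (SE 0.18, limma adjusted p = 0.0105). On day 267 it had 358.9, 458, 361.5, 290.4 and 297.3, against 242.1, 188.7, 223, 177.7 and 242.8 in vehicle, a log2 change of 0.71 (SE 0.18, limma adjusted p = 0.0151). In neither case did the groups overlap. Signal range moved with both, by -0.22 and 0.193, and with range as a covariate the values were -0.59 (limma adjusted p = 0.169) and 0.51 (limma adjusted p = 0.11). The call of day 197 also ended without vehicle replicate 2, and that of day 267 without vehicle replicate 4 or 3 mg/kg replicate 2. On day 197, 3 of 6 osteoblast markers fell in these arrays, Col1a1, Col1a2 and Bglap, with sums of 3193 to 7543 after 3 mg/kg against 6331 to 16410 in vehicle. Ms4a1 fell among 3 markers of the B lineage, with sums of 61.69 to 112.7 against 103.2 to 183.3. On day 267, Mepe and Dmp1 rose among 5 osteocyte markers, with sums of 3795 to 6970 after 3 mg/kg against 1222 to 4358 in vehicle, and Ibsp rose among 6 of osteoblasts, with sums of 10250 to 20300 against 5312 to 13240. Their part in the Gng10 values was not tested.

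Probe sets of 1 gene were then compared. For Eef1a1 the rise of day 183 was in 1 of its 2 probe sets: 1370109_s_at had signals of 1667, 2009 and 2893 at the lowest, median and highest on osteoblast antibody arrays, against 1764, 1563, 1999, 1978 and 2359 on vehicle arrays. These groups overlapped throughout, and the log2 change was 0.16, against 1.27 for 1388110_at. The difference of the changes, other minus brightest, was -1.11 with an SE of 0.17 in osteoblasts, -0.69 in lining cells and -0.52 in osteocytes, given as a description. Neither probe set passed in any contrast of another day. The gene table lists 20 pseudogenes of Eef1a1, and the _s_at ending marks probes shared by several transcripts, so which copies either probe set detects is uncertain. Srsf2 1371839_at had a day 183 change of 0.12 in osteoblasts against 0.60 for the brighter probe set, and of 0.00 against 0.66 in lining cells.

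The probe sets of Son differed on several days. On day 29 in osteoblasts 1398989_at had 133.8, 66.04, 112.8, 189.4 and 111 at 3 mg/kg and 81.15, 44.08, 97, 67.5 and 60.71 at 50 mg/kg, against 182, 173.7, 159, 154.4 and 148.4 in vehicle. Its log2 change was -0.88 (limma adjusted p = 0.00525), with 9 of 10 antibody arrays below all vehicle arrays. Day 29 had the highest vehicle mean of this probe set in osteoblasts, at 7.35 on the log2 scale. On the same arrays 1392523_at overlapped fully, with 1293 to 2000 on antibody arrays against 908.6 to 2312 on vehicle arrays. The change of 1398989_at minus that of 1392523_at was -0.97 (limma adjusted p = 0.00579), and that of 1389173_at was -0.87 (limma adjusted p = 0.00287). With signal range as a covariate neither pair passed, and the first ended without vehicle replicate 1. On day 309 in osteocytes 1398989_at had 33.51, 23.86, 41.49, 29.27 and 14.99 after 50 mg/kg, against 67.29, 65.4, 46.59, 91.73 and 88.83 in vehicle, a log2 change of -1.37 (limma adjusted p = 2e-04), without overlap. The pair difference there was -1.24 (limma adjusted p = 0.00488) and ended without 50 mg/kg replicate 5. After 3 mg/kg, 1398989_at in osteocytes had log2 changes of -1.10 on day 197 (limma adjusted p = 0.0197) and 0.95 on day 267 (limma adjusted p = 0.0305), and each call ended when any of 6 single arrays was left out, as well as with signal range as a covariate. On day 237 in osteocytes it was 1392523_at that rose, with 1333, 1439, 1436, 1184 and 954.3 after 50 mg/kg against 799.1, 1094, 864.6, 896.5 and 1040 in vehicle, a log2 change of 0.43 (limma adjusted p = 0.0162) that a fit of the compared groups alone ended, as did leaving out vehicle replicate 1 or 50 mg/kg replicate 2 or 3.

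The members had 6 pairs of probe sets, 3 of them of Son, and each was tested in the 7 contrasts that the choice did not use. Of these combinations of pair and contrast, 6 passed in osteoblasts, from 4 pairs, none in lining cells, and 4 in osteocytes, from 3 pairs. Over all pairs of probe sets of 1 gene the shares were 5.23%, 0.568% and 3.7%. Of these 10 differences, 6 came from the 3 pairs of Son, 2 from the pair of Srsf2, and 1 each from those of Eef1a1 and Arsb. On day 237 in osteoblasts the Eef1a1 pair differed by -0.67 (limma adjusted p = 0.0248) and the Srsf2 pair by 0.81 (limma adjusted p = 0.0302). Both ended with signal range as a covariate and under quantile normalization, whereas the Son pairs of that day, at -1.37 and -0.99, did not. The Eef1a1 call also ended when any of 3 single arrays was left out, and the Srsf2 call when any of 6 was. The Arsb pair differed by -0.986 in osteocytes on day 237 (limma adjusted p = 0.0474). That call ended under quantile normalization, without a filter and when any of 7 single arrays was left out.

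**Figure D5:**
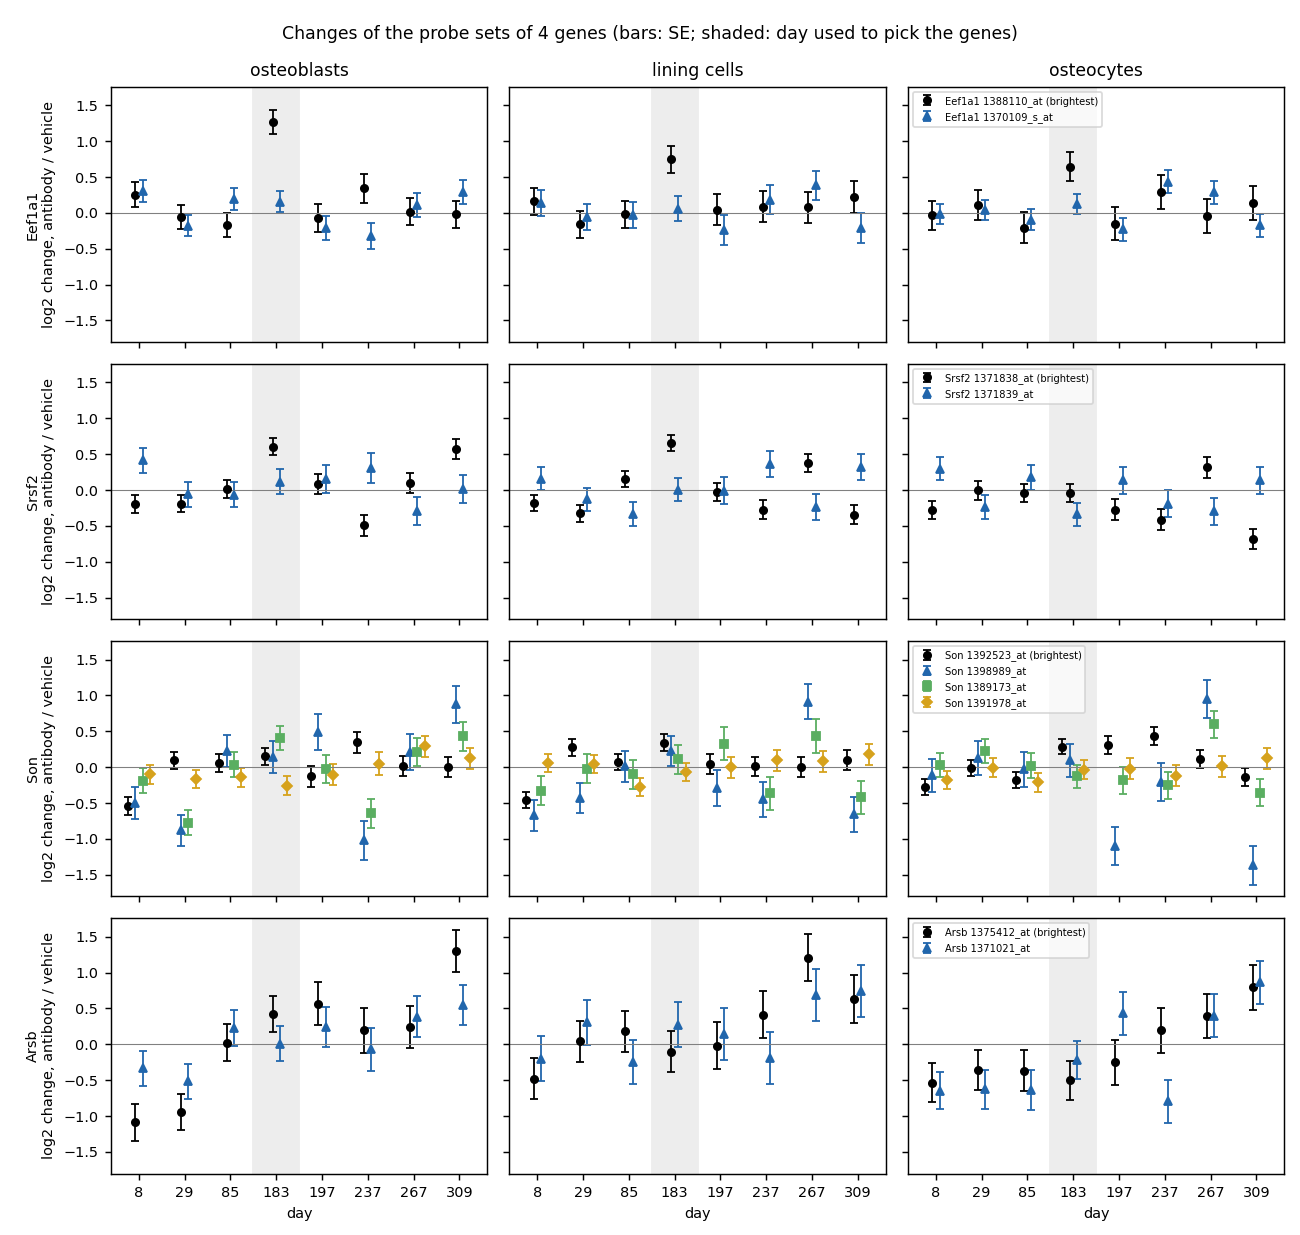
Log2 change, antibody minus vehicle, of every tested probe set of Eef1a1, Srsf2, Son and Arsb over the 8 contrasts of each cell type, with bars for the SE and day 183, which chose the genes, shaded. The 2 Eef1a1 probe sets part on day 183 and lie close together on most other days.

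Across arrays, with group means removed, the probe sets of Eef1a1 and of Arsb moved together and those of Srsf2 and Son mostly did not. For Eef1a1, r was 0.462 in 97 osteoblast arrays, 0.643 in 100 lining cell arrays and 0.573 in 97 osteocyte arrays, and rho was 0.482, 0.597 and 0.541. The permutation p adjusted over the 18 pairs tested was 7.2e-05, 4.5e-05 and 4.5e-05 for r. For Arsb, r was 0.629, 0.613 and 0.426, and rho was 0.606, 0.62 and 0.306, with permutation p adjusted over 18 of 4.5e-05, 4.5e-05 and 0.00096 for r. Without the 2 arrays farthest from the median, r was 0.486, 0.639 and 0.53 for Eef1a1 and 0.616, 0.578 and 0.366 for Arsb. For Srsf2, r was -0.10, 0.06 and 0.24, and only rho in osteocytes, at 0.288, passed with an adjusted permutation p of 0.028. For the 3 pairs of Son, r lay between -0.15 and 0.20 and none passed. The median r over all pairs of probe sets of 1 gene was 0.0863, 0.0758 and 0.0754, so pairs that move together are not the rule in these arrays. Signal range was not removed from these values. Both probe sets of Eef1a1 and of Arsb had positive slopes on it in each cell type, as did those of Srsf2, whose r was lower. The part of signal range in r was not tested. These p-values come from 100000 resamples, two-sided, and the smallest they can give before adjustment is 1e-05.

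Patterns were then compared over the 60 group means, each centred on its cell type. The genes most like Hipk1 were Mcl1 at r = 0.924, a survival factor of the Bcl2 family, Rbm3 at 0.92, an RNA-binding protein induced by cold, and Ccna2 at 0.915, a cyclin of dividing cells. Closest to Gng10 were Gyg1 at 0.958, Hopx at 0.944 and H2az1 at 0.937, and closest to Srsf2 were Elovl5 at 0.946, Snx5 at 0.941 and Rpn1 at 0.936. Eef1a1 was most like other genes of translation, Rpl24 at 0.841, Rpl26 at 0.835 and Eif3h at 0.833, although without day 183 the closest over 51 groups were Hdgf, Rps16 and Lsm12. Arsb was most like Gusb at 0.888, another lysosomal hydrolase, and Acp5 at 0.884, the tartrate-resistant phosphatase of osteoclasts. Son had no close match, with Bbs4 at 0.67, Kif13a at 0.654 and Cped1 at 0.653. Among the members, Hipk1 and Gng10 had r = 0.861, and 0.789 without day 183. Gng10 and Srsf2 had 0.875, and Srsf2 and Son 1398989_at had 0.866. The points share arrays and signal range, and were taken as the highest of many genes, so no test is attached.

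Lists of genes related to the members were counted beside them. Of 9 tested translation elongation factors, 5 rose in osteoblasts on day 8, with Eef1e1 at 0.83, Eif5a at 0.77 and Eef2 at 0.60 on the log2 scale, none fell, and the list median was 0.481 against 0.00551 over all probe sets tested. Under quantile normalization 3 of the 9 rose. Eef1a1 itself did not pass on that day. On day 183 in osteoblasts no elongation factor, no G protein gamma or beta subunit, no HIPK or DYRK kinase and no SR protein or splicing cofactor of the lists passed, of 9, 13, 6 and 19 tested, and of 10 lysosomal hydrolases Gusb did, at 0.63. Under quantile normalization 2 elongation factors fell there. Among 19 splicing genes in osteoblasts on day 29, 3 rose, such as Srsf11 at 0.86, and 5 fell, such as Pnn at -0.91 and U2af1 at -0.88, and with signal range as a covariate 1 rose and none fell. In osteocytes on day 309, where Srsf2 fell, 6 of these 19 fell and none rose, with Tra2b at -1.03, Pnn at -0.95 and Clk1 at -0.95, and the list median was -0.365 against 0.0115 over all. With signal range as a covariate 4 fell and 1 rose. Of the 9 elongation factors 3 fell in the same arrays, with Eef1e1 at -1.30, and 1 with the covariate. In osteoblasts on day 309, 2 splicing genes rose, Tra2b at 0.79 and Srsf1 at 0.50, and 2 of 10 lysosomal genes rose, Ids at 0.86 and Glb1 at 0.69, and with the covariate none of these lists' genes passed there. Of the HIPK and DYRK kinases, Hipk3 rose by 0.50 in osteoblasts on day 237 and fell by 0.59 on the log2 scale on day 309, where Hipk1 had the opposite directions, although with the covariate neither call of Hipk3 remained and quantile normalization ended that of day 237. The difference between the 2 genes was not tested. Of 13 G protein subunits in osteocytes on day 85, 3 rose, led by Gnb5 at 1.26, and Gnb3 fell by 0.71 on the log2 scale.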

How the data were processed

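The deposited values are linear intensity values, 1 per probe set and array, which the authors made by RMA, per the submitters' processing notes. These notes name Affymetrix Expression Console, R 3.0.1 and affy 1.38.1. No source used here names the build behind the probe annotation. RNA was amplified before labelling, per the labels' protocols. Whether this changed the range of signals between arrays was not tested.

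Log2 of the 31042 values was taken for all 294 arrays. Probe sets took genes from the platform annotation: 20826 had 1 gene, 436 several and 9780 none, and 20758 had their symbol updated by gene ID. A model with 1 mean per treatment and day was fitted in each cell type with limma 3.58.1 (lmFit and eBayes) in R 4.3.3, and p-values were adjusted by Benjamini-Hochberg over all tested probe sets of a contrast. Both doses were weighted equally on dosing days. Signal range entered as a further term for the slopes. Differences between probe sets of 1 gene were fitted on the differences of their log2 values. Correlations within groups used permutation tests. The scripts were tested on simulated data. The fit of differences between cell types, and the recount of the lists by quantile normalization or with the range covariate, were added after the data were seen.

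Replicate arrays were numbered in accession order within a group. The labels do not tie arrays to animals, so p-values measure the spread between arrays. Precision is limited by how many arrays a group has. The named genes are the members, the 3 genes most like each by correlation over group means, and up to 3 called genes of each related list with the largest change. The members and lists were chosen with earlier results of these data known. Alternatives were quantile normalization, no filter, 1 probe set per gene, only the groups compared, signal range as a covariate, array weights, omission of arrays of outlying range, another definition of range, vehicle arrays only and omission of each array in turn.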

Additional observations from a re-analysis of the deposited data

Results flagged for a closer look

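Among 63 groups of the brightest probe sets and of signal range on day 183, 3 held an array that stood apart by Dixon's criterion, where chance gives about 1 in 20 groups. Hipk1 had 161.6 on 50 mg/kg osteoblast array 1 of day 183, the lowest of its group, and Eef1a1 had 5644 on the same array, also the lowest. Gng10 had 148.5 on vehicle lining cell array 3 of day 183, the highest of its group. The cause was not tested.

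On day 309 the change after 50 mg/kg differed between cell types. The difference, osteoblasts minus lining cells, was 2.06 for Hipk1, 1.60 for Gng10 and 0.917 for Srsf2 on the log2 scale. Osteoblasts minus osteocytes gave 3.28 for Hipk1, 2.32 for Gng10 and 1.25 for Srsf2. All 6 passed in limma's fit of all arrays at the adjusted p-values given with the day 309 results. Array signal range differed in the same direction in each cell type, and its part in these differences was not tested in that fit.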

How the results depend on the processing

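No paired analysis was possible because the array columns carry no replicate numbers from the labels. Counts are of member probe set and day combinations that passed the test.

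In osteoblasts, the 7 calls of days 8, 29 and 85 became 4 in a fit of only the groups compared and 3 with signal range as a covariate, and 6 to 7 without single arrays. The 9 calls after dosing became 5 under quantile normalization, 4 with only the groups compared and 1 with the covariate (6 to 10 without single arrays). The 1 call between doses became 0 with 1 probe set per gene, 0 with only the groups compared, 0 with the covariate and 6 with array weights (0 to 4). The 6 pair differences became 2 with the covariate (4 to 8), and the 8 slopes 4 under quantile normalization (8 to 9). In lining cells, the 1 call of the dosing days became 0 without a filter, with 1 probe set per gene, with only the groups compared and without arrays of outlying range, and 2 with array weights (0 to 1). The 2 calls after dosing became 1 under quantile normalization, without a filter and with the covariate, 9 with array weights and 4 without arrays of outlying range (1 to 5). Array weights gave 1 call between doses and 3 pair differences, against 0 and 0 (0 to 1 and 0 to 2). The 10 slopes became 5 over vehicle arrays only (9 to 10). In osteocytes, the 5 calls between doses became 3 with 1 probe set per gene and 3 without arrays of outlying range (3 to 6, with 3 mg/kg replicate 2 or 50 mg/kg replicate 3 of day 29 moving it past 1.5 times). Of these 5, 1 was of day 183 and is a description only. The 4 pair differences became 1 under quantile normalization and 9 with array weights (3 to 5), and the 10 slopes 5 under quantile normalization and 4 over vehicle arrays only (9 to 10). The 0 calls of dosing days stayed at 0 and the 10 after dosing ran from 8 to 12 without single arrays.

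The day 183 change of Son in osteoblasts, 0.152, was -0.121 under quantile normalization, and in lining cells and osteocytes it was 0.145 and 0.0927 there, against 0.341 and 0.288. No other day 183 change moved by more than the replicate spread. Of 35 single calls, 19 no longer passed with the covariate, 16 with only the groups compared, 10 under quantile normalization, 5 without a filter, 3 with array weights and 3 without arrays of outlying range, and none changed sign. The causes were not tested.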
